A study of Rattus norvegicus with 24 samples.

Results

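Altogether 10 genes of the chemokine and NF-kB axis were followed here in 4 tissues of Sprague-Dawley rats given dihydrotestosterone (DHT) or vehicle: the chemokines Cxcl1, Cxcl2, Cxcl10 and Ccl2, the NF-kB genes Nfkb1, Nfkb2 and Nfkbia, and the inducible genes Ubd, Icam1 and Il1b. The set was named for being lower in prostate after DHT, so its genes were chosen by their prostate levels and prostate differences. Those values are given as a description with no test. Of the 10 genes listed, 8 had a probe that could be matched to their symbol, among 8945 symbols and 41012 probes on the array; Nfkb1 and Nfkbia were not analysed here. Prostate, skin and forebrain came from males castrated 3 days before the dose, and ovary from intact females, per the sample labels, although the short design text speaks of castrated males throughout. All animals were 12 weeks old, received 1 intraperitoneal dose of 10 mg/kg DHT or the vehicle alone, and were sampled 16 h later. Each of the 8 groups had 3 one-colour arrays, and forebrain vehicle array 3 was left out because its label says it failed the authors' quality control. Vehicle and DHT arrays never shared a slide, so that slide and treatment cannot be told apart within a tissue.

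NF-kB is a family of dimeric transcription factors held in the cytoplasm by inhibitor proteins such as the product of Nfkbia. Signals from toll-like receptors, tumour necrosis factor or interleukin-1 release the dimers, which enter the nucleus and switch on chemokines, adhesion molecules, survival genes and their own inhibitors. Chemokines are small secreted proteins that attract leukocytes: Cxcl1 and Cxcl2 attract neutrophils, Ccl2 attracts monocytes, and Cxcl10, an interferon-induced chemokine, attracts activated T cells. In the prostate, removal of androgen by castration leads to regression of the gland, and DHT, the potent androgen formed from testosterone, restores androgen signalling.

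The stretches of DNA just before the starts of Cxcl1, Cxcl2, Ubd and Cxcl10 are shown because they carry matches to the letters that NF-kB dimers are known to bind. They are the 250 bases before the start that RefSeq gives in the GRCr8 assembly, on the strand of the gene, and capitals mark matches to the NF-kB consensus on either strand. The windows lie at chr14:17479322-17479571 (Cxcl1, minus strand), chr14:17467256-17467505 (Cxcl2, minus strand), chr20:1392686-1392935 (Ubd, minus strand) and chr14:15988816-15989065 (Cxcl10, plus strand).
Cxcl1: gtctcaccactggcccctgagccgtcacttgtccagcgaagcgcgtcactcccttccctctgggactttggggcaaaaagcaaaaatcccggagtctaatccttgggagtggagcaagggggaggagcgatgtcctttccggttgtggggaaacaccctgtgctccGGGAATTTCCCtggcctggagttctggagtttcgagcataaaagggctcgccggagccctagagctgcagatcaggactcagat
Cxcl2: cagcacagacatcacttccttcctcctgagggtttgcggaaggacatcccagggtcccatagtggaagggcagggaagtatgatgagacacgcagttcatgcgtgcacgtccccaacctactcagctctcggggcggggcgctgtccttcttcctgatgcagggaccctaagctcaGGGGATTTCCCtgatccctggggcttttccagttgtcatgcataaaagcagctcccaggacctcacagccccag
Ubd: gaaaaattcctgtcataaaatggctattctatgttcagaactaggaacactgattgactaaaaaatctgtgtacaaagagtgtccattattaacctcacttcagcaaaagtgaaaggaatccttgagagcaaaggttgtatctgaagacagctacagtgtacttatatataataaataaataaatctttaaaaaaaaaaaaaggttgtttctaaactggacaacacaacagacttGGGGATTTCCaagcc
Cxcl10: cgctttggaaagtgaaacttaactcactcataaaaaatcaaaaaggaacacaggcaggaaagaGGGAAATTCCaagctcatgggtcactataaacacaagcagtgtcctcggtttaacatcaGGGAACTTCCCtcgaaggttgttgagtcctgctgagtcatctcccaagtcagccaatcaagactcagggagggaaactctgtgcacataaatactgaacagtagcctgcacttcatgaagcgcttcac

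Promoter windows were found for 9 of the 10 genes, all except Ccl2. The NF-kB consensus was present in 6 of the 9 (Cxcl1, Cxcl2, Cxcl10, Ubd, Nfkb2 and Nfkbia) and in 6.33% of all 33469 promoters of the same length, searched on both strands. A related form (GGG, then NN, then TTTCC) overlaps the consensus but is not wholly contained in it. It was present in 5 of the 9 (the same genes without Cxcl10) and in 1.3% of all promoters. Outside the consensus matches, it also matched 102 bases before the start of Cxcl1 and 54 bases before that of Cxcl2. The consensus match of Cxcl1 began 84 bases before the start and that of Cxcl2 74 bases before it. Those of Nfkb2 and Ubd began 20 and 15 bases before it. Cxcl10 had matches beginning 187 and 128 bases before its start, together with the interferon-type motif (GAAA, then NN, then GAAA; 3.41% of all promoters) and the AP-1 motif TGANTCA (6.34%). Nfkb2 also held TGANTCA. The palindromic androgen-response motif (AGAACA, then NNN, then TGTTCT) was in none of the 9 windows and in 0.012% of all promoters. The TATA motif TATAAA stood in the windows of Cxcl10, Icam1 and Il1b and in 12.9% of all promoters. The windows of Icam1, Il1b and Nfkb1 held no full match to the NF-kB consensus. Only full matches were counted. In the Icam1 window the stretch tggaaattcc departs from the consensus only at its first base. These matches describe letters within the windows and do not show binding.

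**Figure D1:**
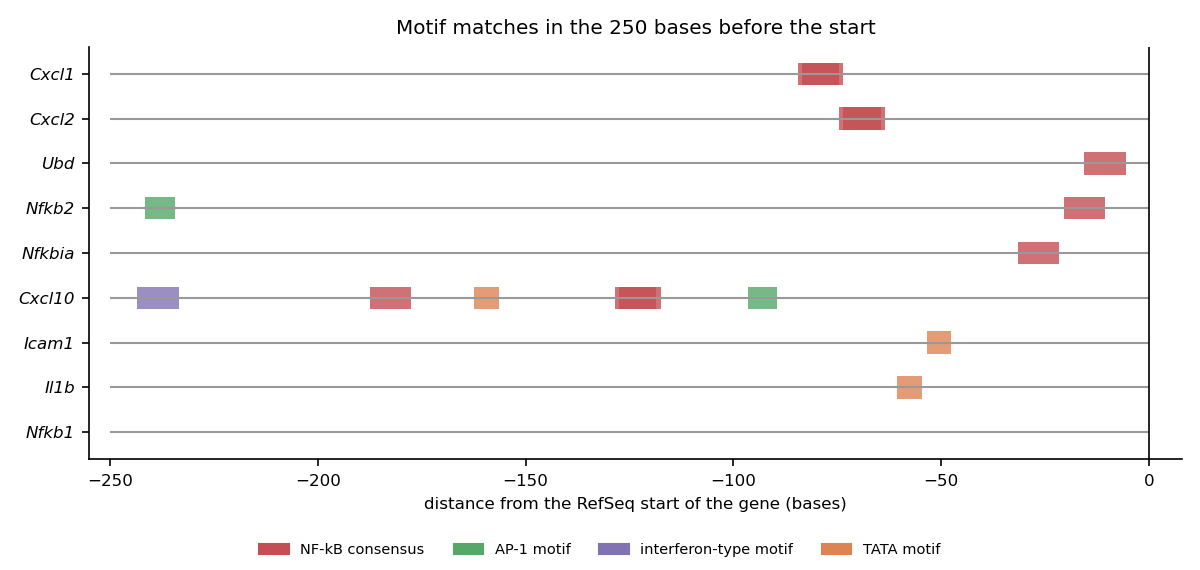
Positions of motif matches in the promoter windows of the 9 genes that had one. The x axis gives the distance in bases from the RefSeq start, each grey line is 1 promoter, and coloured boxes are matches on either strand. The NF-kB consensus matches of Cxcl1 and Cxcl2 begin 84 and 74 bases before the start, and those of Nfkb2 and Ubd 20 and 15 bases before it.

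In prostate, 4 of the 8 measured genes had every DHT array below every vehicle array: Cxcl1, Cxcl2, Ubd and Nfkb2. Cxcl10 and Il1b were lower on average, with overlapping arrays, and Ccl2 and Icam1 were not lower. The name of the set therefore held for some of its genes and not for Ccl2 and Icam1. Over all 23738 genes tested in prostate, DHT and vehicle arrays did not overlap in 35.8% (all DHT arrays below in 16.5%, above in 19.3%), and 4.61% passed as lower by limma at an adjusted p of 0.05 (9.64% in either direction). Because these prostate values chose the genes, nothing is read from the 4 of 8. The median difference of the 8 was -1.48 on the log2 scale, and that of all genes tested was 0.06. Levels are on the log2 scale, with the 75th percentile of each array set to 0, and a difference of 1 is a doubling. In whole tissue, fewer cells of a type and less RNA per cell cannot be told apart.

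Cxcl1, a neutrophil-attracting chemokine, had prostate levels of 1.22, 0.57 and -0.07 on the vehicle arrays and -3.61, -3.76 and -3.52 on the DHT arrays. The lowest vehicle array lay 3.45 log2 units above the highest DHT array. The difference of means was -4.20 (SE 0.33, 3 arrays per group), an 18.4-fold lower level. Its neighbour Cxcl2, a chemokine with the same receptor, measured -0.89, -1.22 and -1.67 on vehicle and -4.90, -4.34 and -4.18 on DHT arrays, again without overlap. The difference was -3.21 (SE 0.28), a 9.26-fold lower level. With another background correction (normexp) the differences were smaller, -3.21 for Cxcl1 and -1.96 for Cxcl2. Both genes were well above background on all 6 prostate arrays.

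Ubd encodes FAT10, a ubiquitin-like modifier that inflammatory cytokines induce and that tags proteins for the proteasome. It was at 6.89, 6.90 and 7.06 in vehicle prostate and at 2.27, 4.49 and 1.38 after DHT. The vehicle arrays were nearly identical, and the DHT arrays spread over 3.11 log2 units while all staying below them. The difference was -4.24 (SE 0.74), an 18.8-fold lower level, and it ranged from -5.12 without DHT array 2 to -3.57 without DHT array 3. Nfkb2 encodes p100, the precursor of the p52 subunit of the non-canonical NF-kB pathway. It had levels of 3.56, 3.07 and 2.91 on vehicle and 1.1, 1.29 and 1.15 on DHT arrays, which is a gap of 1.62 between the groups. The difference was -2.00 (SE 0.21), a 4.00-fold lower level. The other Nfkb2 probe, which was dimmer, showed -2.56, -2.96 and -2.71 on vehicle against -4.36, -3.80 and -4.13 on DHT arrays, a difference of -1.35.

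Cxcl10 measured 0.25, 0.45 and -0.12 in vehicle prostate and -0.68, -2.03 and 0.41 after DHT. DHT array 3 lay among the vehicle arrays, and the mean difference was -0.96 (SE 0.58), or -0.33 without DHT array 2. Il1b encodes interleukin-1 beta, a cytokine that both activates NF-kB and is induced by it. Its levels were -0.37, 0.66 and -1.37 on vehicle and -1.02, -1.86 and -0.03 on DHT arrays, with a difference of -0.61 (SE 0.63). That difference was -0.098 without vehicle array 2, -0.16 without DHT array 2, -1.11 without vehicle array 3, -1.08 without DHT array 3 and -1.31 with array weights. Its second probe gave -0.47, also with overlapping groups.

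Ccl2, the monocyte-attracting chemokine, was at -0.73, 0.25 and -1.12 on vehicle and at -0.16, 1.0 and -1.21 on DHT prostate arrays. The mean was 0.41 higher after DHT (SE 0.61), and the groups overlapped throughout; without DHT array 2 the difference was -0.15. Icam1 encodes an adhesion molecule that binds leukocyte integrins. Its levels were 0.79, 1.42 and 0.74 on vehicle and 1.24, 0.85 and 0.92 on DHT arrays, a difference of 0.02 (SE 0.23). The sign of this difference was kept in 9 of 14 alternative analyses. The vehicle and DHT prostate arrays of both Ccl2 and Icam1 overlapped, unlike those of Cxcl1, Cxcl2, Ubd and Nfkb2. The part of NF-kB in these values was not tested.

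**Figure D2:**
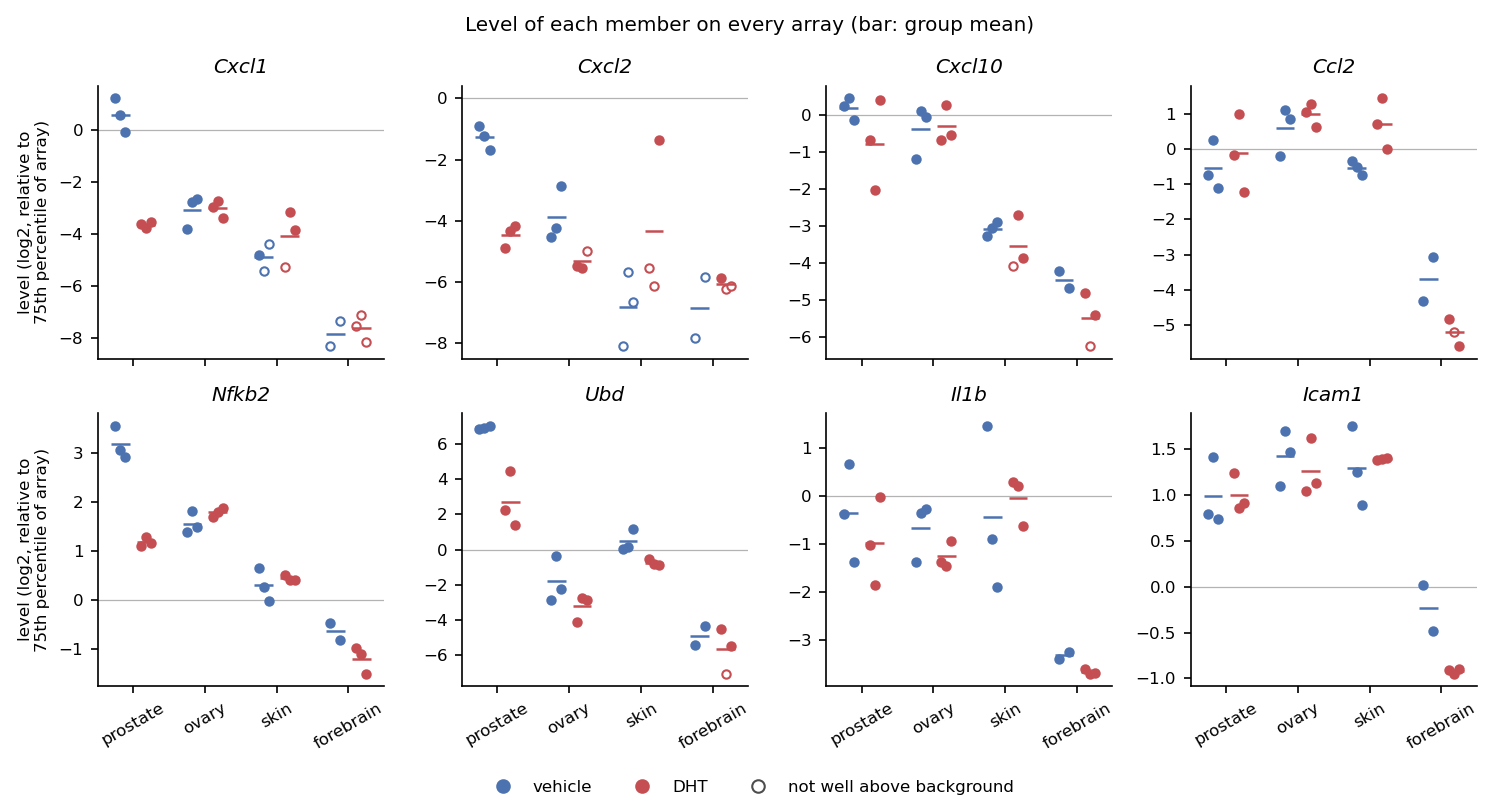
Levels of the 8 measured genes on each of the 23 arrays, as log2 relative to the 75th percentile of the array (y axis; scales differ between panels), in 4 tissues (x axis). Blue points are vehicle arrays, red points DHT arrays, open points spots that were not well above background, and bars group means. In prostate the red points of Cxcl1, Cxcl2, Ubd and Nfkb2 lie below all blue points.

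The other 3 tissues did not enter the choice by prostate values, so the effect of DHT was tested there with limma, adjusted over all genes of each tissue. None of the genes passed in ovary (0 of 8), skin (0 of 7) or forebrain (0 of 6), and the shares of all genes that passed were 0% in each tissue. At an unadjusted p under 0.05 there were 1 of 8, 2 of 7 and 4 of 6 of these genes in ovary, skin and forebrain, where 3076 of 29400 genes in all, 1192 of 24122 (4.94%) and 7234 of 26361 (27.4%) had such a p. None was called in these tissues under any alternative analysis tried. The lowest adjusted p-values in limma were 0.0569 (Cxcl10 in forebrain with normexp) and 0.0593 (Cxcl2 in ovary without vehicle array 2). In those same fits, 762 of all forebrain genes and 7578 of all ovary genes passed. A p above the threshold does not show that DHT left these genes alone.

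In ovary, Cxcl1 had levels of -3.80, -2.78 and -2.63 on vehicle and -2.94, -2.73 and -3.37 on DHT arrays. The difference was 0.06 ± 0.39 (SE), with an adjusted p of 0.969 in limma. Cxcl2 measured -4.53, -4.24 and -2.87 on vehicle and -5.46, -5.53 and -4.98 on DHT arrays, the last not well above background. All DHT arrays lay below the vehicle arrays, as in 11.1% of all ovary genes (2.7% had all DHT arrays above), and the difference of -1.45 ± 0.48 had an adjusted p of 0.475 in limma. Under quantile scaling the Cxcl2 difference turned to 0.35. Ubd had the second largest ovary difference of the set, -1.42 ± 0.72 (adjusted p 0.497 in limma), with levels of -2.84, -0.35 and -2.24 on vehicle and -4.09, -2.73 and -2.88 on DHT arrays. The groups of Ubd overlapped by a narrow margin. The other 5 genes differed by -0.59 (Il1b) to 0.39 (Ccl2), with overlapping arrays. Ovary vehicle arrays 1 and 3 had more probes well above background (96.5% and 97.0%) and a narrower spread of signals than the other ovary arrays. The median difference over all ovary genes was -0.23, and without both of these arrays Ccl2 and Nfkb2 in ovary were at -0.11 and -0.02 instead of 0.39 and 0.23.

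In skin, Ubd had levels of 0.05, 0.16 and 1.2 on vehicle and -0.55, -0.79 and -0.89 on DHT arrays. Every DHT array was lower, which was so for 6.19% of all skin genes, and the difference was -1.22 ± 0.37 (SE; adjusted p 0.752 in limma). Ccl2 ran the other way, with -0.34, -0.51 and -0.74 on vehicle and 0.71, 1.44 and 0.00 on DHT arrays. Every DHT array was higher, which was so for 6.07% of skin genes, and the difference was 1.24 ± 0.40 (adjusted p 0.752 in limma). Cxcl1 was near background in skin, well above it on 1 vehicle and 2 DHT arrays, and differed by 0.77 ± 0.58. Cxcl2 was well above background on none of the vehicle arrays and on 1 DHT array, and was not tested. Il1b spread from -1.89 to 1.46 over the vehicle arrays alone, wider than its difference of 0.41. Nfkb2, Icam1 and Cxcl10 differed by 0.14, 0.09 and -0.48 with overlapping arrays.

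In forebrain, with 2 vehicle and 3 DHT arrays, all 6 tested genes had a negative difference, and in 5 of the 6 each DHT array lay below both vehicle arrays. The median difference over all forebrain genes tested was -0.02. Groups of this size separated often: all DHT arrays were lower in 24.2% of all forebrain genes and the groups did not overlap in 47.3%. Icam1 measured 0.02 and -0.48 on vehicle and -0.90, -0.95 and -0.90 on DHT arrays. Its difference was -0.69 ± 0.18 (SE) with an adjusted p of 0.0981 in limma, the smallest of the set. Ccl2 was at -4.32 and -3.06 on vehicle and at -4.81, -5.20 and -5.60 on DHT arrays, a difference of -1.51 ± 0.43 (adjusted p 0.109 in limma). Nfkb2 was at -0.47 and -0.81 against -0.99, -1.12 and -1.51, a difference of -0.56 ± 0.21 (adjusted p 0.169 in limma). Cxcl10 differed by -1.04 ± 0.44 and Il1b by -0.35 ± 0.12, with adjusted p of 0.203 and 0.154 in limma. The other Il1b probe differed by -0.11 with overlapping groups, so that the separation of Il1b held for 1 of its 2 probes. Ubd overlapped between groups, with a difference of -0.78 ± 0.79. Cxcl1 was not well above background on any forebrain array and Cxcl2 on 1 of 5, so neither was tested. Macrophage markers, which microglia share, had a mean level of 2.34 and 2.04 on the vehicle and 1.42, 1.65 and 1.73 on the DHT forebrain arrays; all 9 were negative and none passed, and their part in the forebrain values was not tested.

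**Figure D3:**
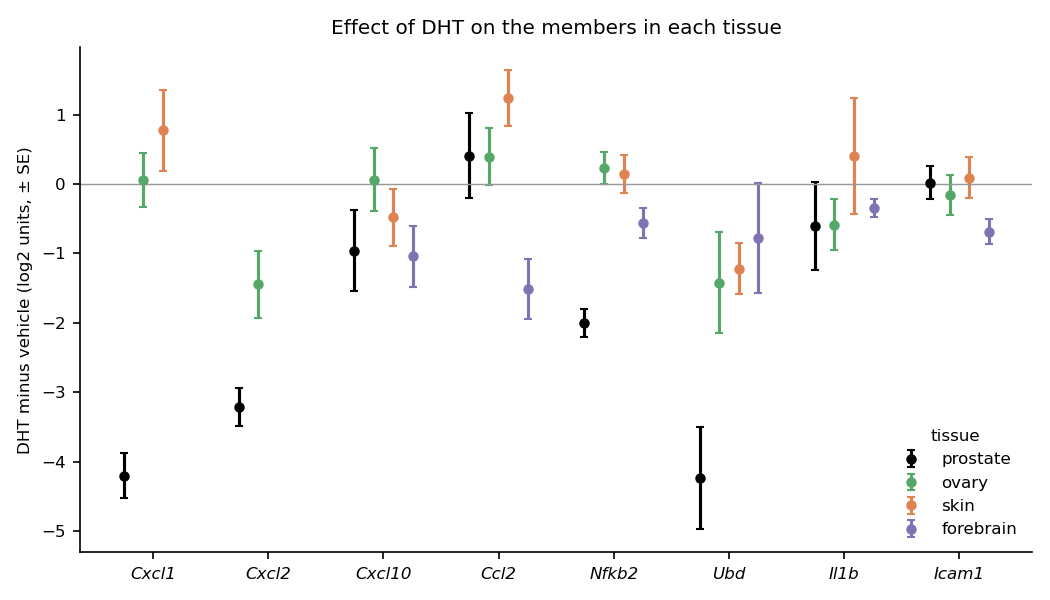
Difference of DHT minus vehicle for each gene (x axis) in log2 units (y axis), coloured by tissue, with bars of 1 standard error from limma. Prostate values chose the set; those of Cxcl1 (-4.20), Ubd (-4.24), Cxcl2 (-3.21) and Nfkb2 (-2.00) lie below the values of these genes in the other tissues, and untested genes are not drawn.

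Whether the effect of DHT differed among ovary, skin and forebrain was tested for the 6 genes kept in all 3 tissues, with slide as a random block. By limma's moderated F test 0 of 6 passed, as against 0.0136% of all genes (3 of 21999), and 1 of the 6 had an unadjusted p under 0.05. That gene was Ccl2, which was higher in skin and lower in forebrain, with an adjusted p of 0.240 in limma. Without ovary vehicle array 2, 1 of the 6 passed, as did 2082 of all genes.

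Levels without DHT differed by tissue. By the same F test on the vehicle arrays of ovary, skin and forebrain, 6 of 6 genes passed, and 72.3% of all genes did so too. Ubd in vehicle tissue ran from 6.95 ± 0.09 (SD, n = 3) in prostate through 0.47 ± 0.63 in skin and -1.81 ± 1.30 in ovary to -4.89 ± 0.77 (n = 2) in forebrain. No 2 neighbours in that order had overlapping arrays. Nfkb2 ran from 3.18 ± 0.34 in prostate to 1.56 ± 0.22 in ovary, 0.30 ± 0.34 in skin and -0.64 ± 0.24 in forebrain, also without overlap between neighbours. The dimmer Nfkb2 probe gave another order, with skin (-2.03 ± 0.53) above prostate (-2.74 ± 0.20), ovary (-3.08 ± 0.85, overlapping prostate) and forebrain (-4.56 ± 0.24). After DHT, Nfkb2 by its brighter probe in prostate (1.18 ± 0.10) lay below its level in ovary (1.79 ± 0.09). Cxcl1 was highest in prostate (0.57 ± 0.65), followed by ovary (-3.07 ± 0.64). Its skin mean (-4.86 ± 0.51) lay near background, with 1 of 3 vehicle arrays well above it. The level of Cxcl1 in DHT prostate (-3.63 ± 0.12) was below the mean of vehicle ovary. Cxcl2 had a mean of -1.26 ± 0.39 in vehicle prostate and -3.88 ± 0.88 in vehicle ovary. Cxcl10 was at 0.19 ± 0.29 in prostate and -0.37 ± 0.70 in ovary, which overlapped, and lower at -3.07 ± 0.19 in skin and -4.45 ± 0.31 in forebrain. For Il1b and Icam1, the vehicle arrays of prostate, ovary and skin overlapped and the forebrain arrays were the lowest. For Ccl2 the prostate arrays overlapped those of ovary and of skin, the ovary arrays lay above all skin arrays, and forebrain was again the lowest. Prostate levels are part of the description that chose the set and have no test.

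The 5 named genes whose 8 group means ran most like the mean pattern of the 6 set genes kept in all 4 tissues were RT1-CE10, Itpr3, Dap, Hps1 and Clic1. Likeness was the root mean square difference between centred group means, 0.31 for RT1-CE10 and Itpr3, 0.33 for Dap, 0.34 for Hps1 and 0.36 for Clic1, among 5904 genes with a symbol. The set's own genes lay farther from their mean pattern, from 0.69 for Nfkb2 to 2.60 for Ubd. The 5 were picked as the nearest of the 5904, so this comparison does not show how alike the set's genes are. Cxcl1 and Cxcl2 did not enter the pattern.

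Other genes of the pathway were taken from 8 lists of 168 genes, of which 119 were on the array and 97 were tested in prostate. Of the 97, 9 passed as lower after DHT and 0 as higher in limma, a share of 9.28% beside the 9.64% of all genes (4.61% lower and 5.03% higher). The median difference of the 97 was -0.37, beside 0.06 for all genes, and 62 of them were negative. In ovary, skin and forebrain none of the tested pathway genes passed in limma. Those at an unadjusted p under 0.05 numbered 13, 4 and 33, which is 12.4%, 4.6% and 40.2% of the pathway genes tested there, beside 3076 of 29400, 1192 of 24122 and 7234 of 26361 of all genes.

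Among 14 tested NF-kB feedback and survival targets, 4 fell in prostate. Of all genes tested in prostate, 4.61% passed as lower, and this share stands beside each list count that follows. Csf1, the growth factor of macrophages, was at 3.96, 3.66 and 3.45 on vehicle and 1.69, 1.51 and 1.35 on DHT arrays, a difference of -2.17 ± 0.19 (SE; adjusted p 0.00459 in limma). Birc3, a ubiquitin ligase that restrains cell death downstream of tumour necrosis factor receptors, measured 0.91, 1.09 and 0.39 on vehicle and -0.97, -0.92 and -0.73 on DHT arrays, a difference of -1.67 ± 0.22 (adjusted p 0.00965 in limma). Gadd45b, a stress-inducible gene, was at 4.89 to 4.95 on vehicle and 3.23 to 3.58 on DHT arrays, a difference of -1.47 ± 0.16 (adjusted p 0.00611 in limma). Ier3, an early response gene, fell by 1.28 ± 0.23 (adjusted p 0.0220 in limma). Csf1, Birc3 and Gadd45b passed with each prostate array left out in turn, whereas Ier3 lost its call without any one of vehicle arrays 1 or 2 or DHT arrays 1, 2 or 3.

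Among 22 tested inflammatory cytokines and receptors, 20 were negative and 3 fell. Their median difference was -0.69, that of all genes was 0.06, and 4.61% of all genes passed as lower. Tlr2, a receptor for bacterial lipoproteins, fell by 1.49 ± 0.31 (adjusted p 0.0351 in limma). Ifngr1, a chain of the interferon-gamma receptor, fell by 1.32 ± 0.28 (adjusted p 0.0359 in limma), and Il1rn, the antagonist of the interleukin-1 receptor, by 0.96 ± 0.17 (adjusted p 0.0236 in limma). The second Il1rn probe was not well above background on any prostate array. Tnf was well above background on 2 of 3 vehicle and none of the DHT arrays, too few for a test. With DHT values raised to at least the lowest well-above-background signal of their array, the vehicle mean was 1.45-fold higher. Il1a was well above background on 1 array of each group and Il6 on none.

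Of 13 tested CC and CX3C chemokines, 1 fell: Cx3cl1, a membrane-anchored chemokine, from 6.84, 7.49 and 7.51 to 5.82, 5.78 and 5.27, a difference of -1.66 ± 0.26 (adjusted p 0.0153 in limma). Its second probe gave -3.10, with all DHT arrays below the vehicle arrays. Ccl7 (0.49), a monocyte chemokine, and Ccl20 (0.23) overlapped between groups. None of 6 further CXC chemokines passed. Cxcl11, an interferon-induced relative of Cxcl10, differed by -2.02 ± 0.57 with all DHT arrays lower (adjusted p 0.0759 in limma), and Cxcl9 by -0.50. Cxcl12, the ligand of Cxcr4, differed by 0.64 with all DHT arrays higher (adjusted p 0.105 in limma). None of 10 chemokine receptors passed; Ccr2, the receptor of Ccl2, differed by 0.25, and Cxcr2, the receptor of Cxcl1 and Cxcl2, was not well above background on any prostate array.

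Among the other NF-kB and IkB subunits and kinases, 5 were tested and none passed; 2 were negative and the median difference was 0.08. Ikbkb, Ikbkg and Nfkbib, which encode kinase subunits and an inhibitor, differed by 0.08, 0.23 and 0.14. Rela, which encodes the p65 subunit, differed by -0.68 ± 0.20 with all DHT arrays lower (adjusted p 0.0796 in limma). Nfkbie, an inhibitor of the family, differed by -0.62 ± 0.21 with all DHT arrays lower (adjusted p 0.125 in limma). Relb, Rel, Nfkbiz, Bcl3, Tnfaip3 and Ackr1 were not analysed here. Of 7 leukocyte adhesion molecules none passed, and Vcam1, an endothelial ligand of leukocyte integrins, differed by 0.98 (adjusted p 0.169 in limma). Of 20 genes of the interferon-gamma list 1 fell: Socs3, a feedback inhibitor of cytokine signalling, by 0.84 ± 0.20 (adjusted p 0.0455 in limma), and that call was lost without any one of the 6 prostate arrays. Cx3cl1 lost its call without vehicle array 2 or DHT array 2, and Il1rn, Tlr2 and Ifngr1 each without any of 5 of the 6 arrays. The count of 9 became 4, 3 and 12 without vehicle arrays 1, 2 and 3, and 5, 3 and 6 without DHT arrays 1, 2 and 3. The normexp correction gave 4, dropping the filter on dim signals gave 3, and weighting arrays gave 25. A block on the replicate numbers, which the labels do not pair, gave 0.

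**Figure D4:**
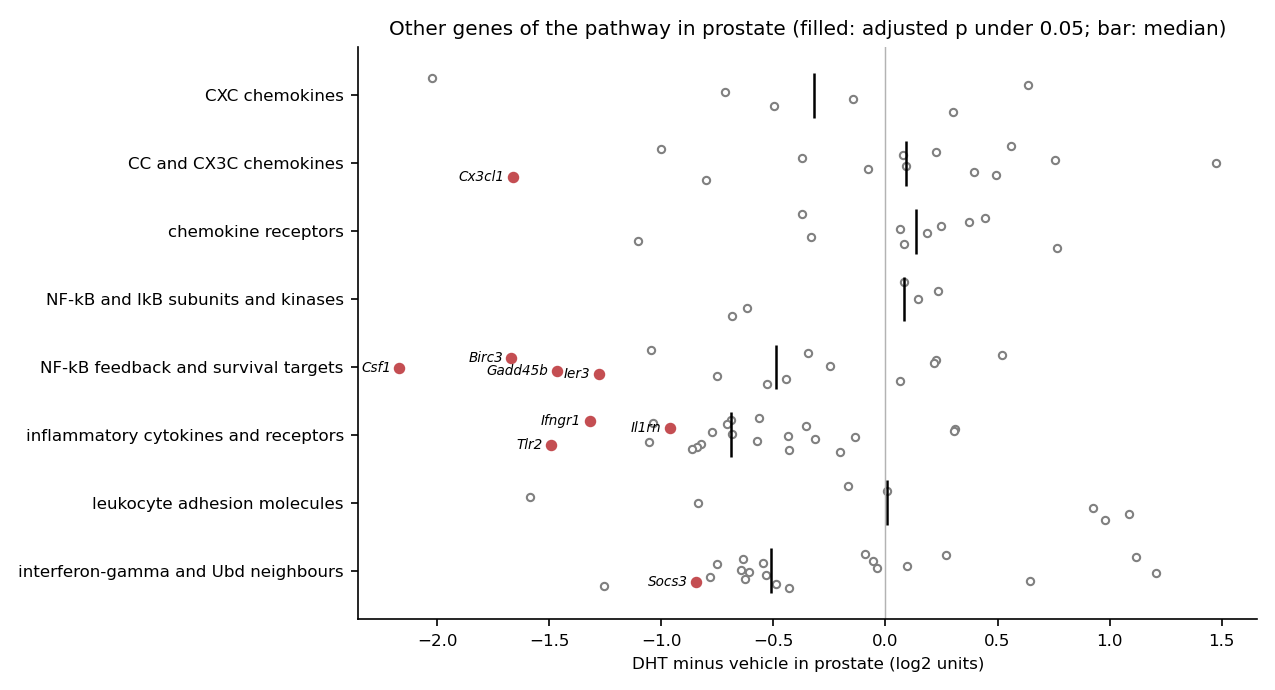
Difference of DHT minus vehicle in prostate (x axis, log2 units) for the 97 tested pathway genes outside the set, in 8 lists (y axis). Each point is a gene, filled and named where limma's adjusted p was under 0.05, and vertical bars are list medians. All 9 named genes lie to the left of 0.

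For the pathway genes outside the set, the prostate effect was also compared with the mean effect in skin and forebrain of the castrated males, in a fit over 23 arrays with slide as a random block. Of 75 genes tested 6 passed, all more negative in prostate, beside 5% of all 20751 genes. The differences were -2.12 for Csf1, -1.78 for Birc3, -1.67 for Gadd45b, -1.42 for Ier3, -1.32 for Tlr2 and -1.21 for Ifngr1. Cx3cl1 (-1.19, adjusted p 0.134 in limma) and Socs3 (-1.51, adjusted p 0.115 in limma) did not pass.

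Markers of the cell types that could carry these genes were measured in the same prostate samples. The 9 macrophage markers had a mean level of 4.23, 4.42 and 3.93 on vehicle and 3.76, 3.96 and 4.09 on DHT arrays. Of the 9, 7 had a negative difference, with a median of -0.36 beside 0.06 for all genes, and none passed. The 7 common leukocyte genes had 1.71 to 2.05 on vehicle and 1.55 to 1.74 on DHT arrays. Of the 7, 6 had a negative difference, with a median of -0.20, and none passed. Of 6 neutrophil markers 2 to 4 were well above background on an array, with Cxcr2 and Mmp8 below it on all, and the list mean overlapped between the groups (-4.91 to -3.80 on vehicle and -3.96 to -3.84 on DHT arrays). The 8 T and B cell markers overlapped too, at -4.08 to -2.85 on vehicle and -4.74 to -3.54 on DHT arrays. The mean of the 9 epithelial markers was 4.5 to 4.81 on vehicle and 3.61 to 4.07 on DHT arrays. Of these markers 8 had a negative difference, Krt8, Krt14 and Krt19 passed as lower, and Krt18 differed by 0.48. Endothelial markers had -1.80 to -1.0 on vehicle and -0.98 to -0.40 on DHT arrays. Of these 5 markers 0 had a negative difference, with a median of 0.47, and none passed. The 7 fibroblast and smooth muscle markers had 3.29 to 3.48 on vehicle and 3.04 to 3.91 on DHT arrays. Of the 7, 1 had a negative difference, with a median of 0.35, and none passed. The part of all these cell types in the levels of Cxcl1, Cxcl2, Ubd and Nfkb2 was not tested. Of the prostate's own secretory genes, Pbsn, Klk1c9 and Scgb2a1 rose with DHT, and the prostate list was highest on the prostate arrays, as the labels have it.

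**Figure D5:**
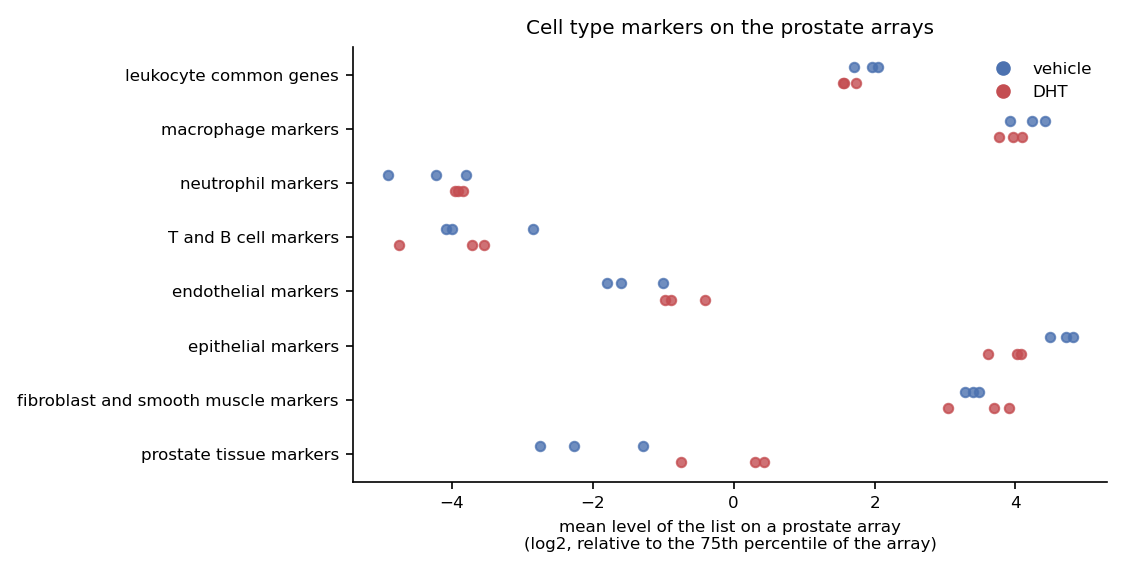
Mean level of each cell type marker list on the 6 prostate arrays (x axis, log2 relative to the 75th percentile of the array), with vehicle in blue and DHT in red and 1 point per array. Macrophage and neutrophil lists overlap between the groups, the mean of the epithelial list is lower and that of the prostate list higher on every DHT array.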

How the data were processed

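Amplified RNA carried Cy3 (labels' protocols). Each deposited file gave spot intensity of 1 array, not on a log scale, from Agilent Feature Extraction. Its version was 10.5.1.1 per the file headers and 10.1 in the submitters' processing notes. The processed signal used was background-subtracted but not normalized between arrays. From it, log2 minus the 75th percentile of the array was computed. Control and outlier spots were left out, and probes were kept where well above background on at least 3 arrays of a tissue (54.6% to 97.0% of probes per array were; the number of arrays limits the precision). Accessions were matched to symbols of the GRCr8 RefSeq table for 10813 of 41012 probes. Other probes carry an accession only, and a gene with several probes is represented by its brightest. Each tissue was fitted with limma 3.58.1 in R 4.3.3 and Benjamini-Hochberg adjustment; fits over tissues had slide as a random block. The limma fits were tested on simulated data. Whether the 3 arrays of a group came from separate animals is said only by the design text, which calls them biological replicates.

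The members, lists and tests were chosen with earlier results of these data known. Named were all members, the up to 4 genes per list with the smallest adjusted p past 0.05, 22 pathway genes given whatever their values, and the 5 genes most like the members. The mean signal foreseen for the normexp alternative was not used, and the median signal took its place. Alternatives were quantile scaling, the filter, averaged probes, array weights, a replicate block, 1 fit over all tissues and leaving out arrays.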

Additional observations from a re-analysis of the deposited data

Results flagged for a closer look

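For 6 pathway genes outside the set, the effect of DHT in prostate differed from the mean effect in skin and forebrain by the test of the difference itself, in limma over 23 arrays. Of all 20751 genes in this test, 5% passed. Birc3, a survival ubiquitin ligase, had a difference of -1.78 (adjusted p 1.2e-04), Csf1, the macrophage growth factor, one of -2.12 (adjusted p 4.1e-04) and Gadd45b, a stress gene, one of -1.67 (adjusted p 0.00166). These 3 passed with any 1 of the 23 arrays left out. Ifngr1 (-1.21, adjusted p 0.0268), Ier3 (-1.42, adjusted p 0.0343) and Tlr2 (-1.32, adjusted p 0.0494) each lost the call in limma when certain single arrays were left out, among them prostate vehicle array 1 and prostate DHT array 1. The effects of Csf1 in skin and forebrain were 0.57 and -0.67, those of Birc3 0.31 and -0.10, and those of Gadd45b 0.14 and 0.28, none of which passed in its tissue. Ovary did not enter this comparison. There each DHT array of Birc3 lay below each vehicle array, as in 11.1% of all ovary genes.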

How the results depend on the processing

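Over 14 alternatives the prostate differences of Cxcl1, Cxcl2, Ubd, Nfkb2, Cxcl10 and Il1b kept their sign. Ccl2 kept it in 13 and Icam1 in 9 of the 14. These arrays chose the genes, so the signs are a description only. The cause of each change below was not tested. All genes passing in prostate, 2288, became 640 under normexp, 619 without the filter, 5357 with array weights and 574 to 2746 with 1 array left out. Pathway genes lower in prostate, 9, became 4 with normexp, 3 with no filter, 14 with a filter on every array, 25 with array weights and 3 to 12 with 1 array left out; those higher, 0, became 1 with quantile scaling, 2 with array weights and 0 to 1. In ovary, 0 became 15 with quantile scaling, 83 with array weights, 383 in 1 fit over all tissues and 0 to 7578 with 1 array left out, the last without vehicle array 2. In skin, 0 became 4 in 1 fit over all tissues. In forebrain, 0 became 762 with normexp, 1536 with the filter on every array, 32 in 1 fit and 0 to 49 with 1 array left out. The count of genes whose effect differed among ovary, skin and forebrain, 3, was 1 with normexp and 0 to 2082 with 1 array left out (members 0 to 1), and the 6 pathway genes of the prostate difference became 3 with normexp and 3 to 6.

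No difference that changed sign was called. With normexp these were Ccl7 (-0.10), Ccl20 (-0.26) and Ccr2 (-0.31) in prostate and Cxcl10 (0.044), Il1b (-0.039) and Icam1 (-0.016) in skin. Ccl20 was -0.016 with array weights. With 1 array left out, Ccl20 ranged from -0.0069 (DHT array 1) to 0.54 and Ccr2 from -0.027 (DHT array 2; -0.013 without vehicle array 2) to 0.56. In ovary, Cxcl2 was 0.35 with quantile scaling and Nfkb2 -0.22 with averaged probes. With 1 ovary array left out, Cxcl1 ranged from -0.31 to 0.28 and Cxcl10 from -0.34 to 0.31, both lowest without vehicle array 1; without vehicle arrays 1 and 3 together, Cxcl1 was -0.24, Cxcl10 -0.43, Ccl2 -0.11 and Nfkb2 -0.018. With 1 skin array left out, Nfkb2 ranged from -0.015 to 0.32, Il1b from -0.32 to 1.36 and Icam1 from -0.11 to 0.32, each lowest without vehicle array 3.

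Same-numbered vehicle and DHT arrays did not deviate together: the correlations of their deviations were between -0.43 and 0.01. With so few arrays, these correlations cannot settle whether same-numbered arrays were handled together. The labels do not pair them. With the replicate block, 0 genes passed in prostate in all and 0 pathway genes were lower, and the counts of 0 in the other tissues stayed 0.

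Depth is not known for arrays; Cxcl1 and Cxcl2 in skin and forebrain were limited by signal near background.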
